A study of Mus musculus with 6 samples.

Results

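Integrins are cell surface receptors built from 1 α and 1 β chain, and the RNA of 10 chain genes was followed here in blood stem and progenitor cells: Itgal, Itgam and Itgb2 of the leukocyte integrins, Itga4, Itgb7 and Itgb1, which form the α4 integrins, and Itga2, Itga5, Itga6 and Itgav, whose receptors bind matrix. The genes were taken by name, with every probe set annotated to one of them alone, which gave 28 probe sets for 10 of the 18193 genes measured. The cells were adult mouse marrow LSK cells, negative for lineage antigens and positive for Sca1 and Kit, and the mice were 10 to 14 weeks of age. Staining for CD34 and Flt3 split them into CD34+Flt3hi, CD34+Flt3- and CD34-Flt3- cells, with 2 expression arrays per gate and no other difference named by the labels. No strain, sex or number of pooled mice is given in the sources used here, and nothing says that the 2 arrays of a gate came from separate animals or sorts, so the p-values rest on differences between arrays that may be technical replicates. Sample titles carry a code without a stated meaning: replicate 2 of all 3 gates shares a code called A here, replicate 1 of CD34+Flt3hi and of CD34+Flt3- shares code B, and replicate 1 of CD34-Flt3- has its own.

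Integrins hold blood cells to other cells and to matrix, and most stay in a low-affinity state until talin and kindlin bind the tail of the β chain. In the marrow, the α4 integrins hold stem and progenitor cells to VCAM1 and fibronectin on stromal cells, and α6 chains bind laminin. Integrins with the β2 chain bind ICAM molecules and serve leukocyte trafficking, while the α4 chain with the β7 chain guides lymphocytes to the gut. Each α chain reaches the surface only with a β partner, so RNA of 1 chain says nothing alone about the receptor.

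Values below are log2 of the deposited intensities, and a gene with several probe sets was read from its brightest. Background was a log2 of 4.50, the 90th percentile over all arrays of 27 bacterial control probe sets. These were chosen by name and taken as not spiked. Array medians lay between 29.7 and 31.4 in linear units. Precision is limited by having only 2 arrays a gate. The sort antigens followed their gates in part: Cd34 RNA was 11.35 and 11.34 in CD34+Flt3hi, 10.51 and 10.68 in CD34+Flt3- and 8.78 and 9.45 in CD34-Flt3- cells, far above background also where the sort was negative. Flt3 RNA read 12.01 and 11.75, 8.84 and 9.81, and 7.65 and 9.16 in the same gates, so that the 2 gates sorted as Flt3- overlapped. Markers of erythroid cells were at or near background (0 of 3 measured genes had a mean above it), and those of stromal cells summed to 438 to 528 in linear units in CD34+Flt3hi, 367 to 460 in CD34+Flt3- and 319 to 411 in CD34-Flt3- cells, with 5 of 8 above background. Pdgfrb set the order of the stromal sum (geometric means of 293, 201 and 65.3), while Col1a2 ran the other way (35.7, 53.4 and 112).

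Of the 10 integrin genes, 2 changed between the outer gates: in CD34+Flt3hi compared with CD34-Flt3- cells Itgal rose 4.56-fold and Itga6 was 3.39-fold lower. Across all genes 6.11% were called in this comparison (limma, adjusted p below 0.05), 2.62% higher and 3.5% lower. At the step from CD34+Flt3- to CD34+Flt3hi 0 of 10 integrin genes passed (0.61% of all genes did, 0.385% higher and 0.225% lower), and 0 of 10 passed between CD34+Flt3- and CD34-Flt3- (2.1% of all genes, 0.77% higher and 1.33% lower). At an unadjusted p below 0.05 limma named the same 3 genes, Itga6, Itgal and Itgb7, in each of these 2 comparisons, against 6.76% and 16.9% of all genes. Between the outer gates it named 2 of 10 at that level, Itga6 and Itgal, against 18.3% of all genes. Any pair of these 3 comparisons shares the arrays of 1 gate. The arrays of CD34+Flt3hi and CD34-Flt3- cells did not overlap for 7 of 10 integrin genes (47.9% of all genes), those of CD34+Flt3hi and CD34+Flt3- cells for 5 (40.4% of all genes), and those of CD34+Flt3- and CD34-Flt3- cells for 4 (44.2% of all genes). These counts hold genes with means below background, Itga2 in the 7 and the 4 and Itgam in the 5. The median log2 difference of the 10 genes was -0.17 between the outer gates (-0.07 over all genes), 0.05 for CD34+Flt3hi minus CD34+Flt3- (0.03 over all genes) and -0.25 for CD34+Flt3- minus CD34-Flt3- (-0.10 over all genes). A moderated F over the 3 gates called Itgal alone (adjusted p = 0.00616; 4.67% of all genes). Of the 10 genes, 8 read above background on every array, and Itgam and Itga2 had means below it.

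**Figure D1:**
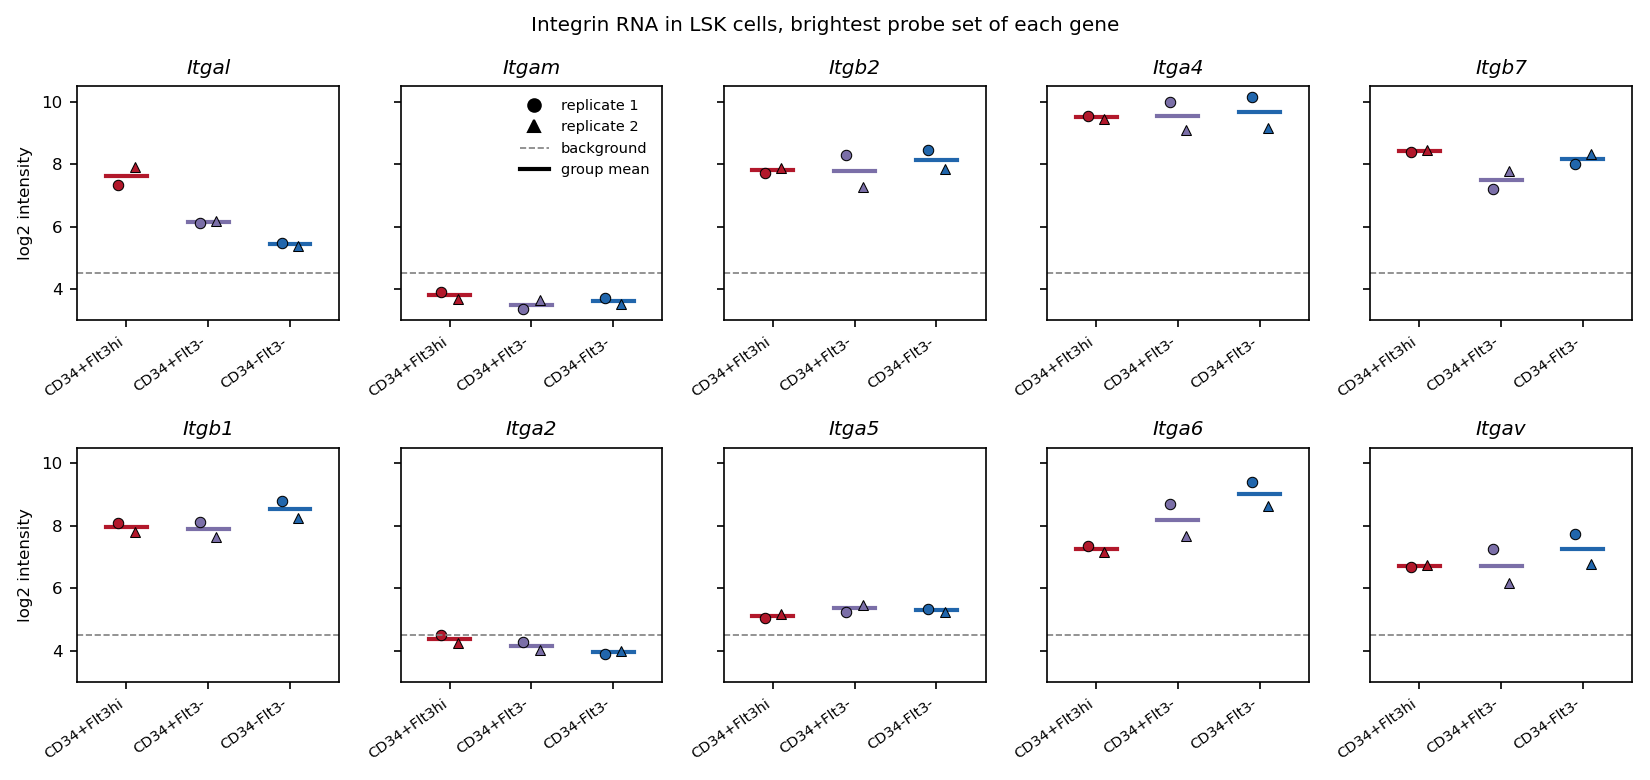
Log2 intensity (vertical axis) of the brightest probe set of each integrin gene on the 6 arrays, by sort gate (horizontal axis). Circles are replicate 1, triangles replicate 2, thick bars group means and the dashed line background at 4.50. Itgal is highest in CD34+Flt3hi cells (7.32 and 7.91), Itga6 is lowest there (7.35 and 7.16), and Itgb7 is lowest in CD34+Flt3- cells (7.19 and 7.78).

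Itgal encodes the αL chain (CD11a), which pairs with the β2 chain to form LFA-1, a receptor for ICAM molecules found on most leukocytes. Its RNA read 7.32 and 7.91 in CD34+Flt3hi, 6.13 and 6.18 in CD34+Flt3-, and 5.46 and 5.39 in CD34-Flt3- cells. The 3 gates did not overlap, with the highest level in CD34+Flt3hi and the lowest in CD34-Flt3- cells. The difference between CD34+Flt3hi and CD34-Flt3- cells was 2.19 ± 0.29 (SE, n = 2 arrays each; adjusted p = 0.00233; 95% confidence interval 1.54 to 2.84), and within code A it was 2.52. Most of it lay at the step into the Flt3hi gate, 1.46 ± 0.29 against CD34+Flt3- cells, which did not pass (adjusted p = 0.0755; 1.73 within code A, 1.20 within code B), as the 0.73 ± 0.29 between CD34+Flt3- and CD34-Flt3- cells did not (adjusted p = 0.239). The sizes of these 2 steps were not shown to differ (difference 0.74, interval -0.38 to 1.86, adjusted p = 0.689; 0.0275% of all genes passed this test). In cells sorted as mixtures, more cells with the RNA and more RNA per cell cannot be told apart.

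The other Itgal probe set did not follow. Probe set 1435560_at gave the values above, while 1425367_at, with a mean of 5.11 nearer to background, read 4.89 and 4.84 in CD34+Flt3hi, 4.95 and 5.33 in CD34+Flt3-, and 4.99 and 5.62 in CD34-Flt3- cells. Its difference between the outer gates was -0.44 (adjusted p = 0.536 with every probe set tested singly). The mean of the 2 probe sets gave 0.87 with an adjusted p of 0.0564, so the call for Itgal rests on the brighter probe set. With that probe set it held without any 1 of the 6 arrays (1.90 to 2.48, adjusted p = 0.00178 to 0.0434).

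Like Itgal, some markers of other cells that carry LFA-1 were higher in the CD34+Flt3hi gate than in the CD34-Flt3- gate. They were 1 of 8 T and NK lineage markers (Nkg7) and 2 of 12 neutrophil and monocyte markers (Csf1r and Mpo). Of 5 dendritic markers 1 passed, Flt3, but the gates were sorted on it. Its rise was thus set by the sort and is no reading of dendritic cells. In these lists 0 were lower, while over all genes 2.62% were higher and 3.5% lower. Summed over 8 measured T and NK lineage markers, the linear intensity was 959 to 986 in CD34+Flt3hi, 1320 to 1339 in CD34+Flt3- and 391 to 546 in CD34-Flt3- cells, with 4 of 8 markers above background on average and Cd3g below it on every array. Nkg7 carried most of it, with geometric means of 744, 1087 and 244. The sum over 12 neutrophil and monocyte markers was 3518 to 4466, 3382 to 4696 and 1627 to 1764 in the same gates, with 8 of 12 above background and Ltf, Lcn2 and S100a8 below it on every array. Mpo made up most of it in the CD34+ gates (2506, 2597 and 364), while Lyz2 ran the other way without passing (622, 949 and 1019). The sum over 5 dendritic cell markers was 3555 to 4254, 552 to 987 and 299 to 694, with 3 of 5 above background and Xcr1 below it on every array. Flt3 made up most of it (geometric means of 3770, 641 and 339), so its order was set largely by the sort. The part of these markers in the Itgal result was not tested.

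Itgb2, the β2 chain that every leukocyte integrin of this group needs, did not pass in any comparison. It read 7.71 and 7.89 in CD34+Flt3hi, 8.28 and 7.26 in CD34+Flt3-, and 8.45 and 7.84 in CD34-Flt3- cells, and all 3 gates overlapped. The difference between CD34+Flt3hi and CD34-Flt3- cells was -0.35 with an interval of -1.15 to 0.46 (adjusted p = 0.695). Itgam, the αM chain (CD11b) of the complement receptor of monocytes and neutrophils and one of the antigens commonly used to deplete mature cells, lay below background on all 6 arrays, between 3.35 and 3.90. Its differences are drawn among the others in the plot of differences but are not read as changes.

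The α4 chain gene Itga4 was well above background in all gates. Its brightest probe set, 1436037_at, read 9.54 and 9.45 in CD34+Flt3hi, 9.98 and 9.09 in CD34+Flt3-, and 10.16 and 9.16 in CD34-Flt3- cells. The gates overlapped, and the differences were -0.17 between the outer gates (interval -0.98 to 0.64, adjusted p = 0.867), -0.05 for CD34+Flt3hi minus CD34+Flt3- and -0.12 for CD34+Flt3- minus CD34-Flt3-. The 4 other probe sets were dimmer. The one that varied most, 1456498_at, read 6.11 and 6.33 in CD34+Flt3hi, 5.78 and 6.47 in CD34+Flt3-, and 5.70 and 4.34 in CD34-Flt3- cells, and its difference of 1.21 between the outer gates did not pass (adjusted p = 0.196).

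Itgb7, the β7 chain that joins α4 in the gut homing receptor of lymphocytes, was lowest in the middle gate. It read 8.37 and 8.46 in CD34+Flt3hi, 7.19 and 7.78 in CD34+Flt3-, and 8.02 and 8.32 in CD34-Flt3- cells. No array of the CD34+Flt3- gate reached the range of the other gates. The excess of CD34+Flt3hi over CD34+Flt3- cells was 0.93 ± 0.28 (SE; interval 0.30 to 1.57; adjusted p = 0.333; 0.68 within code A, 1.18 within code B), and CD34+Flt3- minus CD34-Flt3- was -0.68 ± 0.28 (adjusted p = 0.255). The change of direction between the steps, 1.62 ± 0.49, did not pass over all genes (adjusted p = 0.406), and the outer gates differed by 0.25 (interval -0.38 to 0.88). Among markers of cells that carry β7, mast cell and basophil markers had their highest sum where Itgb7 was lowest, 142 to 244 in CD34+Flt3hi, 513 to 649 in CD34+Flt3- and 266 to 306 in CD34-Flt3- cells (3 of 5 above background), a sum led by Cpa3 (geometric means of 23.3, 384 and 192), while Mcpt8 read 106, 64.9 and 31.8. B lineage markers summed to 324 to 325, 293 to 345 and 424 to 439 in the same gates (5 of 7 above background, Ms4a1 below it on every array). The T and NK lineage sum, carried mostly by Nkg7, was also highest in the middle gate (959 to 986, 1320 to 1339 and 391 to 546). The dendritic sum was highest in CD34+Flt3hi cells (3555 to 4254, 552 to 987 and 299 to 694). Flt3, a sort antigen, made up most of this sum, so its order was set largely by the sort. The part of these markers in the Itgb7 values was not tested.

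Itgb1, the β1 chain that pairs with α4 and with most matrix α chains, was measured by 6 probe sets, 3 of them with means above background. The brightest, 1426918_at, read 8.09 and 7.80 in CD34+Flt3hi, 8.13 and 7.62 in CD34+Flt3-, and 8.79 and 8.25 in CD34-Flt3- cells. Every array of the CD34+ gates lay below the CD34-Flt3- arrays, but neither difference passed: -0.58 for CD34+Flt3hi (interval -1.25 to 0.09, adjusted p = 0.351) and -0.65 for CD34+Flt3- cells (interval -1.31 to 0.02, adjusted p = 0.31), each minus CD34-Flt3-. The other bright probe set, 1452545_a_at, gave -0.74 and -0.60 in the same comparisons, but its CD34+Flt3- and CD34-Flt3- arrays overlapped. The dimmer 1427771_x_at, with a mean of 4.88, gave -0.10 and -0.39 (adjusted p = 0.905 and 0.528 with probe sets tested singly). Its CD34+Flt3hi and CD34-Flt3- arrays overlapped. Among the 3 probe sets above background, every CD34+ array thus lay below the CD34-Flt3- arrays in the brightest alone.

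Because α4 and β7 chains form a single receptor, the promoter windows of both genes are shown, 250 bases before to 50 bases after the RefSeq start (build GRCm38.p6, Itga4 on the plus strand at chr2:79255176-79255475, Itgb7 on the minus strand at chr15:102231886-102232185). Capitals mark every match, on either strand, to any of 5 motifs: GGAAGT, the core bound by ETS factors, AGATAA for GATA factors, TGTGGT for RUNX factors, CACCTG for E proteins, and GGGCGG, the GC box.
Itga4: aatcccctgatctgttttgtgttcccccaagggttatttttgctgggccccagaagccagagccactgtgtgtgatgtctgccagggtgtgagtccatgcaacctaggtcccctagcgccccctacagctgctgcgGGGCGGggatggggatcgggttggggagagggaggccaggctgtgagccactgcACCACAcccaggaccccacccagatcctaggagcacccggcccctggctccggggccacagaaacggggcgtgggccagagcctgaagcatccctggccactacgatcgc
Itgb7: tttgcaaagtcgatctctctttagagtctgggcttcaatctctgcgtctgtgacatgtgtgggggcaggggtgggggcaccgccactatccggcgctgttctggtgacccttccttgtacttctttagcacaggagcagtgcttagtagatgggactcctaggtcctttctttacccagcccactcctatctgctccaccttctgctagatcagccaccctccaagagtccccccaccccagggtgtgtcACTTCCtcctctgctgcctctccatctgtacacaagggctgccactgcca
The Itga4 window is 64.3% G and C and holds a GC box 114 bases before the start and a RUNX motif, on the opposite strand, 60 bases before it. The Itgb7 window is 56.3% G and C and holds an ETS core on the opposite strand at the start itself. These are common letters: the ETS core stands in 23.8%, the GATA motif in 11.2%, the RUNX motif in 16.8%, the E protein motif in 20.2% and the GC box in 35.7% of the 32851 windows of this length. Windows for 7 of the 10 genes were at hand, Itgal, Itga6 and Itgb2 being the others.

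Among the matrix chains, Itga6 fell in CD34+Flt3hi cells. It encodes the α6 chain (CD49f), which binds laminin with a β1 or β4 partner. Probe set 1422445_at read 7.35 and 7.16 in CD34+Flt3hi, 8.68 and 7.67 in CD34+Flt3-, and 9.41 and 8.62 in CD34-Flt3- cells. Both CD34+Flt3hi arrays lay below all others, while the 2 remaining gates overlapped. CD34+Flt3hi minus CD34-Flt3- was -1.76 ± 0.38 (SE, n = 2 each; adjusted p = 0.0223; interval -2.60 to -0.92; -1.46 in code A). CD34+Flt3hi minus CD34+Flt3- was -0.92 (adjusted p = 0.651; -0.51 within code A, -1.33 within code B) and CD34+Flt3- minus CD34-Flt3- was -0.84 (adjusted p = 0.294). The call between the outer gates was lost without CD34+Flt3hi replicate 1 (-1.85, adjusted p = 0.142) and without its replicate 2 (-1.67, adjusted p = 0.187), and held without any 1 of the other arrays.

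The other Itga6 probe set, 1422444_at, read 6.64 and 6.62 in CD34+Flt3hi, 8.10 and 7.98 in CD34+Flt3-, and 8.13 and 8.0 in CD34-Flt3- cells. Its arrays were tight within each gate, and its difference between the outer gates was -1.44 (adjusted p = 0.0138 with probe sets tested singly, where 4.13% of all probe sets were called). Nearly all of that lay between CD34+Flt3hi and CD34+Flt3- cells, -1.41 (adjusted p = 0.0662), against -0.03 (adjusted p = 0.975) between CD34+Flt3- and CD34-Flt3- cells. The difference between the steps did not pass for either Itga6 probe set (adjusted p = 0.986 for 1422445_at and 0.524 for 1422444_at), and the probe sets were not tested against each other. With all 28 integrin probe sets tested singly, 3 passed between the outer gates, both of Itga6 and the brighter one of Itgal. At either step 0 passed (0.343% and 1.12% of all probe sets did). An unadjusted limma p below 0.05 was reached by 4 and 3 of the 28 at these steps. The share of all probe sets at that level was not counted, so these counts are not read as an excess.

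Some markers of other cells that carry α6 were also lower in the CD34+Flt3hi gate than in the CD34-Flt3- gate. These were 3 of 7 for megakaryocytes (Pf4, Gp1bb and Gp9) and 3 of 7 for endothelium (Vwf, Tek and Kdr). In both lists 0 were higher, while over all genes 3.5% were lower and 2.62% higher. The summed linear intensity of 7 megakaryocyte markers was 272 to 275 in CD34+Flt3hi, 588 to 877 in CD34+Flt3- and 595 to 855 in CD34-Flt3- cells, with 6 of 7 above background on average. The sum over 7 endothelial markers was 174 to 221, 264 to 671 and 2213 to 2953 in the same gates, with 6 of 7 above background and Cdh5, the cadherin of endothelial junctions, below it on every array. Vwf carried most of that sum in CD34-Flt3- cells (geometric means of 15.8, 119 and 1979), while Pecam1 read 31.8, 30.2 and 31.3. Their part in the Itga6 result was not tested.

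**Figure D2:**
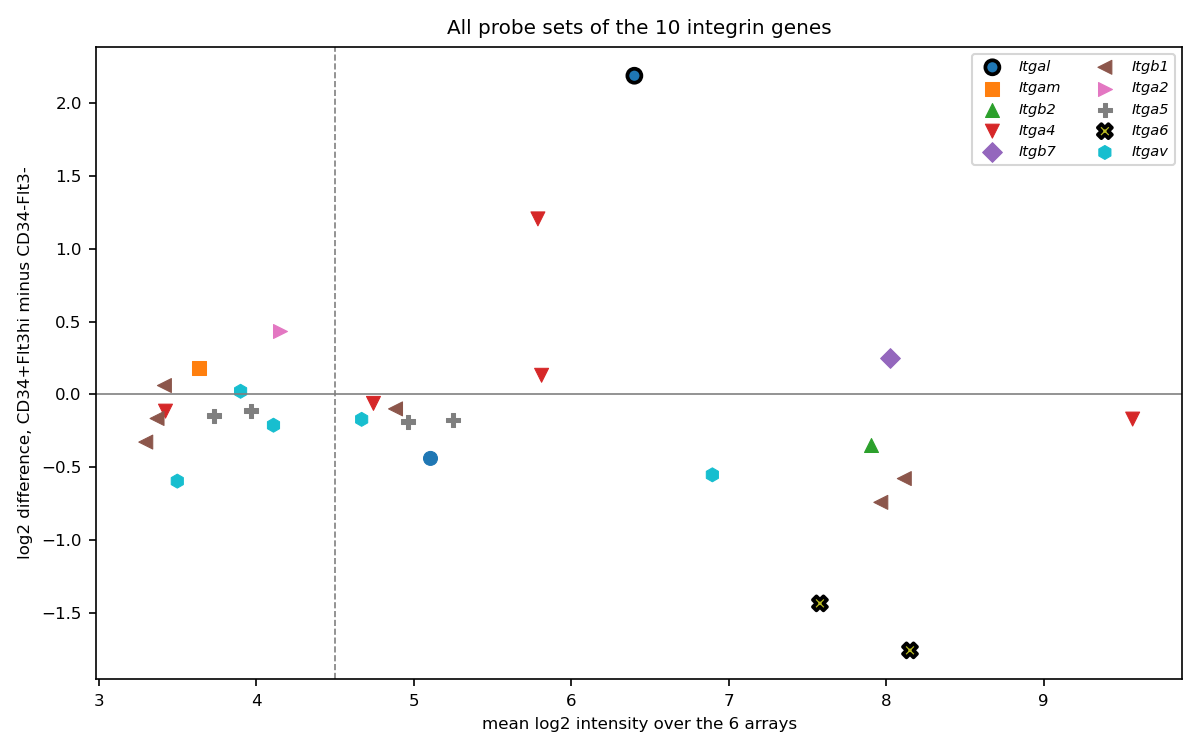
Difference in log2 intensity between CD34+Flt3hi and CD34-Flt3- cells (vertical axis) against mean log2 intensity over the 6 arrays (horizontal axis) for all 28 integrin probe sets. Black outlines mark the 3 probe sets past the threshold and the dashed line marks background. Both Itga6 probe sets lie low (-1.76 and -1.44), and the 2 Itgal probe sets lie apart (2.19 and -0.44).

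Itgav, the αv chain of vitronectin receptors, read 6.69 and 6.74 in CD34+Flt3hi, 7.26 and 6.16 in CD34+Flt3-, and 7.75 and 6.78 in CD34-Flt3- cells. CD34+Flt3hi lay below CD34-Flt3- on every array, with 6.74 and 6.78 as the nearest pair, and the difference of -0.55 did not pass (interval -1.48 to 0.38, adjusted p = 0.552). Of its 5 probe sets, 3 had means below background. Itga5, the α5 chain of the main fibronectin receptor, was dim at 5.05 and 5.17 in CD34+Flt3hi, 5.22 and 5.47 in CD34+Flt3-, and 5.33 and 5.24 in CD34-Flt3- cells. Its intervals were -0.73 to 0.38 between the outer gates (adjusted p = 0.78), -0.79 to 0.32 for CD34+Flt3hi minus CD34+Flt3- and -0.49 to 0.61 for CD34+Flt3- minus CD34-Flt3-. Itga2, the α2 chain of a collagen receptor, read above background on 1 array, CD34+Flt3hi replicate 1 at 4.51, and between 3.88 and 4.26 on the others.

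**Figure D3:**
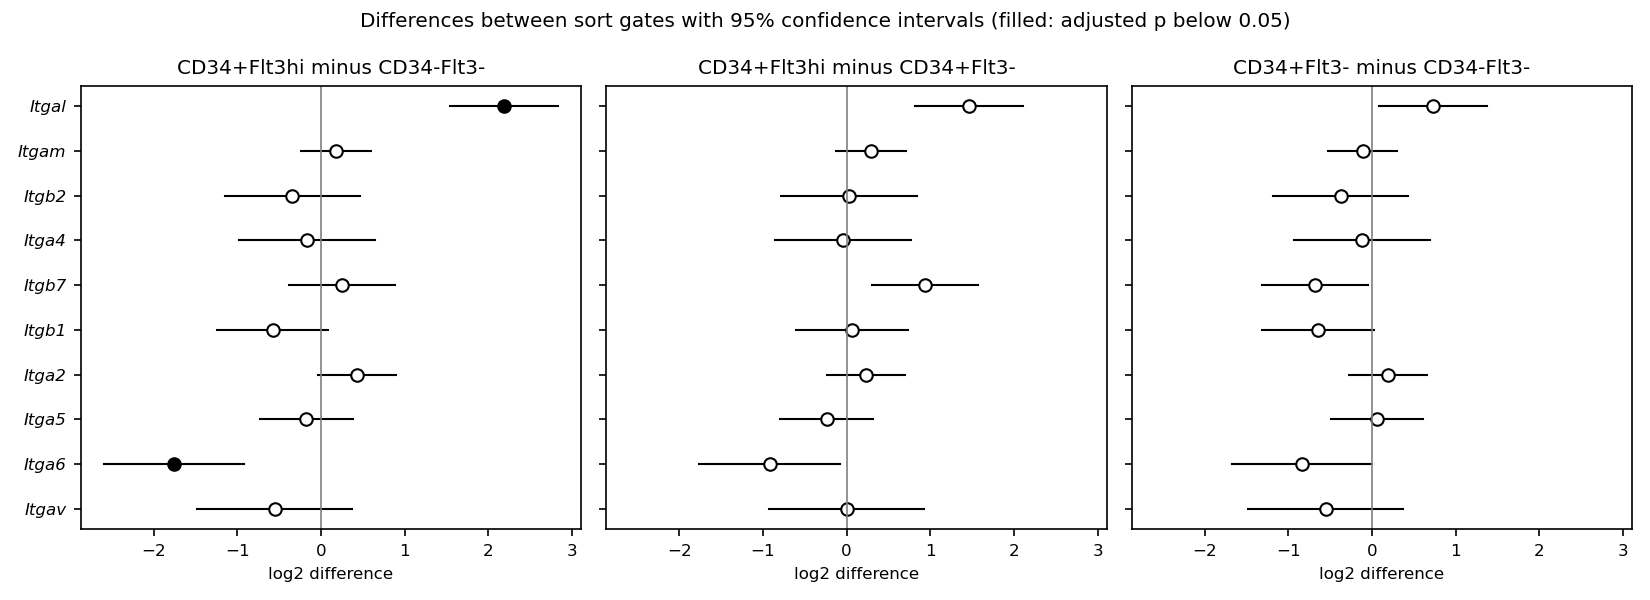
Log2 differences (horizontal axis) of the 10 integrin genes for the 3 comparisons of sort gates, each with its 95% confidence interval from the limma fit. Filled circles passed an adjusted p of 0.05: Itgal at 2.19 and Itga6 at -1.76, both for CD34+Flt3hi minus CD34-Flt3-. Itgam and Itga2 have means below background.

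The spread between the 2 arrays of a gate set how small a change could be seen. Over the 8 integrin genes above background, the median absolute difference between replicates was 0.15 in CD34+Flt3hi, 0.74 in CD34+Flt3- and 0.57 in CD34-Flt3- cells, against 0.19, 0.28 and 0.37 over the 13334 genes above background. In both Flt3- gates Itga4, Itga6, Itgav, Itgb1 and Itgb2 all read higher on replicate 1, by 0.51 to 1.10 in CD34+Flt3- and by 0.54 to 0.99 in CD34-Flt3- cells. Of all genes above background, 63.3% in CD34+Flt3- and 56.1% in CD34-Flt3- cells also read higher on replicate 1. Their median difference was 0.13 and 0.08. Itgb7 read lower on replicate 1 of these gates, by 0.59 and 0.31. Itgal replicates lay within 0.07 of each other in both of these gates.

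Among 14 other integrin chains measured, 2 were lower in the CD34+Flt3hi gate than in the CD34-Flt3- gate and 0 higher (3.5% and 2.62% of all genes), and these were the chains of the platelet fibrinogen receptor. Itgb3, the β3 chain, read 5.48 and 5.28 in CD34+Flt3hi, 7.68 and 5.98 in CD34+Flt3-, and 8.99 and 8.91 in CD34-Flt3- cells. Between the outer gates it was 11.9-fold lower in CD34+Flt3hi cells (log2 -3.57 ± 0.46, SE; adjusted p = 0.00205). It was also lower in CD34+Flt3- than in CD34-Flt3- cells (log2 -2.13 ± 0.46, adjusted p = 0.049), a call lost without CD34+Flt3- replicate 2 (-1.28, adjusted p = 0.3) and without either CD34+Flt3hi array (adjusted p = 0.106 and 0.107) as well as under 5 other settings, and the difference was -2.98 without CD34+Flt3- replicate 1. A dimmer Itgb3 probe set read 4.87 to 5.46 on all arrays and differed by -0.42 between the outer gates (adjusted p = 0.529).

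Itga2b, the αIIb chain (CD41), had another course, with 6.86 and 6.07 in CD34+Flt3hi, 10.35 and 9.19 in CD34+Flt3-, and 9.38 and 10.17 in CD34-Flt3- cells. The 2 Flt3- gates overlapped and differed by -0.0033 (interval -0.95 to 0.95), while CD34+Flt3hi minus CD34-Flt3- was -3.31 ± 0.43 on the log2 scale (SE; 9.93-fold lower, adjusted p = 0.00202). A test of unequal steps for Itga2b did not pass (difference -3.30, adjusted p = 0.28). Itga2b passed also for CD34+Flt3hi minus CD34+Flt3- (adjusted p = 0.00874), though not without CD34+Flt3hi replicate 2 (adjusted p = 0.105) or CD34+Flt3- replicate 1 (adjusted p = 0.135). Itgax, the αX chain (CD11c) of dendritic cells and another β2 partner, read 5.47 and 5.81 in CD34+Flt3hi, 4.45 and 4.45 in CD34+Flt3-, and 4.58 and 4.99 in CD34-Flt3- cells, a difference of 0.86 between the outer gates that did not pass (adjusted p = 0.0927). The median over the 14 chains was -0.05 between the outer gates, beside -0.07 over all genes.

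Of 39 measured genes on a list of integrin activators, adaptors and associated proteins, 2 were lower in the CD34+Flt3hi gate than in the CD34-Flt3- gate. On this list 0 were higher (3.5% of all genes were lower and 2.62% higher), and 0 passed at either step. Over the 4 lists at most 1 gene passed at each step, Itga2b and Itgb3. Ptk2b, the focal adhesion kinase relative PYK2, read 8.13 and 8.08 in CD34+Flt3hi, 8.18 and 7.95 in CD34+Flt3-, and 9.08 and 9.04 in CD34-Flt3- cells (log2 -0.96 ± 0.24 between the outer gates, adjusted p = 0.0441). Vasp, which promotes actin filament growth at adhesions, read 7.37 and 7.57, 8.12 and 8.05, and 8.75 and 8.29 in the same gates (log2 -1.05 ± 0.27, adjusted p = 0.0476). Both calls lay close to the threshold and were each lost without 5 of the 6 arrays in turn, with an adjusted p of up to 0.365 for Ptk2b and 0.427 for Vasp. A dimmer Ptk2b probe set differed by -0.15 (adjusted p = 0.869). The core activators talin and kindlin did not pass: Tln1 differed by -0.48 (adjusted p = 0.31) and the blood cell kindlin gene Fermt3 by -0.60 (adjusted p = 0.187). The median over the list was -0.04 between the outer gates. Of 19 ligand genes measured, 2 were lower in the CD34+Flt3hi gate than in the CD34-Flt3- gate (3.5% of all genes were), Icam4 (-1.82, adjusted p = 0.032) and Col1a2 (-1.65, adjusted p = 0.023), named here because so few passed and after their values were seen. Their calls were not tried without single arrays. Vcam1, a ligand of the α4 integrins, read 4.86 to 5.28 on all arrays.

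**Figure D4:**
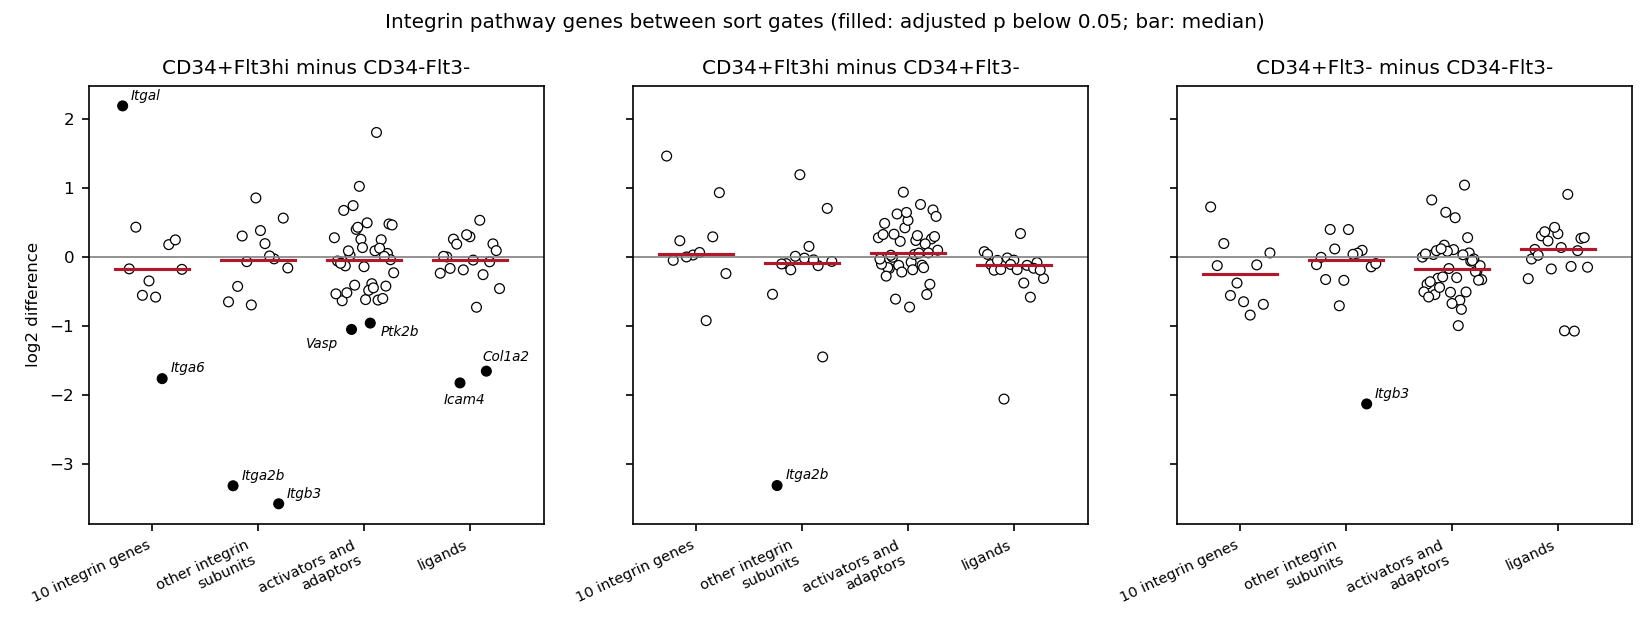
Log2 differences (vertical axis) for the 10 integrin genes, 14 other integrin chains, 39 activators and adaptors and 19 ligands (horizontal axis) in the 3 comparisons of gates. Each circle is a gene, filled and named where the adjusted p was below 0.05, and red bars are medians. The largest falls are those of Itgb3 (-3.57) and Itga2b (-3.31), and Itgal (2.19) is the single named rise.

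For the 3 integrin genes with the smallest adjusted p of the moderated F, the genes whose levels followed theirs most closely were sought over the 6 arrays among 4848 genes that spanned at least 1 log2 unit. For Itgal these were Slc9a7 (Pearson's r = 0.9998), Btla (0.982) and Pald1 (0.981), for Itga6 Ptpn12 (0.995), Usp54 (0.993) and Gbp2 (0.992), and for Itgb7 Tex13b (0.972), Tnfaip1 (0.958) and Lsp1 (0.95). With 6 arrays that share 3 gates, high values are common: 170 genes had an r above 0.9 with Itgal, 353 with Itga6 and 14 with Itgb7.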

How the data were processed

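Per the labels, cells were sorted into lysis buffer and their RNA was amplified with 2 rounds of in vitro transcription. Such amplification shortens the copies, so probe sets far from a transcript's end can lose signal; their positions were not examined here. The deposited intensities come from RMA, per the submitters' processing notes, without a version. They are taken as linear because they run from 6.50 to 24174, and their log2 was used. The table holds 45101 probe sets: 34945 with 1 gene symbol, 932 with several (left out), 9160 with none (not used here) and 64 controls. Symbols were updated by gene identifier (99.1% matched). Genes were tested in a limma fit (version 3.58.1, R 4.3.3; group means of 6 arrays, intensity trend, 3 residual and 6.86 prior degrees of freedom). Two-sided p-values took the Benjamini-Hochberg adjustment over 18193 genes, or over 34945 probe sets. Confidence intervals are not adjusted. With 2 arrays a gate, exact permutation cannot give a p under 0.333, so none is given. The pipeline was tested on simulated data. Members and lists were chosen with earlier results of these data known. Named beside the members were up to 6 genes past the threshold from each of the lists of other chains and of activators, the smallest adjusted p first; Itgax, Tln1, Fermt3 and Vcam1 were chosen after their values were seen. Alternatives were the title code as a block, no trend, repeated quantile normalization, median centring, a background filter, the mean of all probe sets, no x or s probe sets, the 4 arrays compared, a 2-fold minimum, an adjusted p below 0.10, and leaving out each array. Figures used matplotlib 3.10.9 in Python 3.11.15. Sequences are from RefSeq, GRCm38.p6.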

Additional observations from a re-analysis of the deposited data

How the results depend on the processing

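Of the integrin genes, Itgal kept its call between CD34+Flt3hi and CD34-Flt3- cells in all alternatives but the mean of all probe sets, and Itga6 kept its call in all but the removal of either CD34+Flt3hi array. The count of 2 called genes became 1 with the mean of all probe sets and was 1 to 2 without single arrays. A fit of fewer arrays has fewer degrees of freedom. Leaving out an array left its gate with 1, assumed to vary like the others. Of the other genes called, Itgb3 for CD34+Flt3- minus CD34-Flt3- was also lost without the trend, with median centring, with the mean of probe sets, without x and s probe sets and with the 4 arrays (adjusted p = 0.052 to 0.105), and Ptk2b and Vasp with median centring and with the 4 arrays (adjusted p = 0.0555 to 0.0806), Ptk2b with the mean of probe sets (0.236) and a 2-fold minimum, and Vasp with the block (0.123) and without x and s probe sets (0.05004). The title codes did not meet the criterion for pairing: over genes, the deviations of the code A arrays from their gate means correlated at 0.066, 0.058 and 0.31. With the codes as a replicate block, which fits CD34-Flt3- replicate 1 exactly, 3 integrin genes passed for CD34+Flt3hi minus CD34+Flt3- (Itgal, adjusted p = 0.000423, Itgb7, 0.022, and Itga6, 0.026), where 3.68% of all genes did. Of the 28 probe sets, 2 then passed for CD34+Flt3- minus CD34-Flt3- (6.72% of all probe sets), 3 at the step to CD34+Flt3hi (2.23%) and 5 between the outer gates (10.6%). Both the 2 and the 5 held Itga4 1456498_at (adjusted p = 0.00117 and 0.000339) and Itgav 1432678_at (0.0182 and 0.00467). The Itgav probe set lay below background on all 6 arrays. The unequal steps of Itga2b also passed (adjusted p = 0.000609). With the block 8 of 39 activators and adaptors passed between the outer gates, 4 higher and 4 lower (13% of all genes), 4 at the step to CD34+Flt3hi (3 higher, 1 lower) and 3 between CD34+Flt3- and CD34-Flt3- (1 higher, 2 lower, 8.68% of all genes). The other chains had 3, 3 and 2 calls in the same comparisons, and the ligands 2, 1 and 1. The F test then called 3 integrin genes (13.3% of all genes), against 2 with quantile normalization or an adjusted p below 0.10, and 0 to 2 without single arrays. For CD34+Flt3hi minus CD34+Flt3-, 1 integrin gene passed with only the 4 arrays compared or an adjusted p below 0.10 and 0 to 1 without single arrays. The probe sets called there numbered 1 without the trend, with quantile normalization or with an adjusted p below 0.10, 2 with the 4 arrays, and 0 to 2 without single arrays. The same ranges were 0 to 1 for CD34+Flt3- minus CD34-Flt3- and 0 to 4 for the outer gates. Shares over all probe sets, and over all genes in the F test, were counted only for the main fit and the block. Under the other settings the probe set and F test counts therefore have no background to be read against.

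Signs turned only for differences that passed nowhere. For CD34+Flt3- minus CD34-Flt3-, the block gave 0.13 for Itga4 and 0.0085 for Itgam, quantile normalization 0.072 for Itga4 and 0.20 for Itga2b, the mean of probe sets 0.21 for Itga4 and -0.053 for Itga5, and leaving out x and s probe sets -0.016 for Itga5. Without single arrays the ranges were -0.62 to 0.37 for Itga4, -0.062 to 0.18 for Itga5, -0.27 to 0.040 for Itgam, -0.88 to 0.13 for Itgb2 and -0.58 to 0.57 for Itga2b. For CD34+Flt3hi minus CD34+Flt3-, quantile normalization gave -0.068 for Itgav, -0.073 for Itgb1, -0.098 for Itgb2 and -0.12 for Ptk2b, and the mean of probe sets -0.19 for Itgav and -0.20 for Ptk2b. The ranges without single arrays were -0.49 to 0.40 for Itga4, -0.55 to 0.55 for Itgav, -0.19 to 0.32 for Itgb1, -0.48 to 0.54 for Itgb2 and -0.076 to 0.15 for Ptk2b. Between the outer gates Itga4 was 0.083 with the block, 0.20 with the mean of probe sets, and -0.67 to 0.33 without single arrays. With the background filter Itga2 and Itgam have no value.

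Over all genes, the 382 called for CD34+Flt3- minus CD34-Flt3- became 1579 with the block, 199 with the mean of probe sets, 47 with the 4 arrays, 843 at an adjusted p below 0.10, and 0 to 983 without single arrays (0 without CD34+Flt3- replicate 2, where 1569 had an unadjusted limma p below 0.05). The 111 for CD34+Flt3hi minus CD34+Flt3- became 670, 69 and 300 in the first 3 of these, and 18 to 300 without single arrays. The 1112 between the outer gates became 2360 with the block and 271 to 1918 without single arrays. Quantile normalization moved the split of higher and lower calls to 253 and 245 in place of 140 and 242 for CD34+Flt3- minus CD34-Flt3-, and to 63 and 71 in place of 70 and 41 for CD34+Flt3hi minus CD34+Flt3-, with the same integrin genes called. Causes were not tested.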
